A study of Mus musculus with 7 samples.

Results

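The cholesterol genes examined here make, sense, move, store and export sterol. They are 34 genes chosen by name for these roles, and all 34 had a row among the 35976 symbols of the count table. Of the 34, 19 are enzymes of sterol synthesis, 5 control the SREBP transcription factors, 4 serve uptake, transport inside the cell and storage, and 6 belong to the LXR receptors and their efflux programme. The RNA came from lineage-negative cells of C57BL/6 mouse fetal liver at E14.5, selected with magnetic beads, and was sequenced as polyA libraries. This fraction keeps stem and progenitor cells once cells that carry surface markers of mature blood lineages are taken out. The 3 control libraries carried CD45.2(+) Brd9fl/fl, that is Brd9 alleles flanked by loxP sites and no recombinase. The 4 knockout libraries carried the same alleles with Vav1-iCre, a recombinase driven by the regulatory elements of the blood cell gene Vav1. Every knockout library and no control carried the recombinase, so its own effect and that of Brd9 loss cannot be told apart. Whether a library was 1 embryo or a pool is not said in the labels, so the p-values speak of library-to-library spread, part of which may be technical.

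Cells build cholesterol from acetyl-CoA through mevalonate, farnesyl pyrophosphate, squalene and lanosterol. When sterol in the endoplasmic reticulum is low, Scap carries SREBP proteins to the Golgi, where they are cut, and the freed part enters the nucleus and switches on the synthesis genes. When sterol is plentiful, Insig proteins hold Scap back, and oxysterols activate the LXR receptors, which switch on export pumps and the ligase that degrades the lipoprotein receptor. In fetal liver, hepatocytes make sterol for lipoproteins, macrophages export what they take up, and dividing blood progenitors need sterol for new membrane.

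SREBP acts on promoters together with NF-Y, a factor that binds the letters CCAAT, so the bases in front of the genes are shown first. RefSeq promoter windows (GRCm38.p6) were found for 28 of the 34 genes, and the 250 bases before each start were searched on both strands, counting a gene once if any of its windows matched. No window was found for the synthesis genes Fdps, Fdft1 and Sqle, nor for Npc1, Stard4 and Abcg1. CCAAT stood in the window of 15 of the 16 synthesis genes that had one, against 40.3% of the 10876 tested genes with a window. It stood in 4 of 5 SREBP control genes, in both transport and storage genes with a window (Npc2 and Soat1), and in 1 of 5 LXR and efflux genes (Mylip). TCACNCCAC, a form of the sterol regulatory element that SREBP binds, stood in the window of Hmgcs1 alone among the 28 genes searched, against 1.22% of all 27025 genes with a window. The 5 windows below show a synthesis gene with both motifs, synthesis genes with 5 and 3 CCAAT matches, the synthesis gene without any, and an efflux gene without any. Each is written 5′ to 3′ on the strand of its gene and ends at the base before the start, with both motifs in capitals, read on either strand; they did not overlap in any window shown.
Hmgcs1, plus strand, chr13:119690101-119690350: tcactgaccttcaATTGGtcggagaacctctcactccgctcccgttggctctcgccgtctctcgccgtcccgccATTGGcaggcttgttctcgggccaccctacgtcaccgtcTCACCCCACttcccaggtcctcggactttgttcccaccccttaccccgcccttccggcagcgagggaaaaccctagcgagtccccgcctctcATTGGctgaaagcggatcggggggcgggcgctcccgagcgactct
Mvk, plus strand, chr5:114444019-114444268: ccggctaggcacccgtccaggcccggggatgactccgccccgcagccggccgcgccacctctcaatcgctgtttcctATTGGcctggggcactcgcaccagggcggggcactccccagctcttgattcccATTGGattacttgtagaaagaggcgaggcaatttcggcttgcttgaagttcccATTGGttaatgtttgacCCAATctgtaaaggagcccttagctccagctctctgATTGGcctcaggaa
Msmo1, minus strand, chr8:64733579-64733828: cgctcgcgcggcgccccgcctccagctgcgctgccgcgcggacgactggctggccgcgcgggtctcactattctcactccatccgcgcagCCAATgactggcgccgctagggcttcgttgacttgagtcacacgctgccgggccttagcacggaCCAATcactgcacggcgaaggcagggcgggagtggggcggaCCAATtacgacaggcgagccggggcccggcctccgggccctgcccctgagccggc
Acat2, minus strand, chr17:12960726-12960975: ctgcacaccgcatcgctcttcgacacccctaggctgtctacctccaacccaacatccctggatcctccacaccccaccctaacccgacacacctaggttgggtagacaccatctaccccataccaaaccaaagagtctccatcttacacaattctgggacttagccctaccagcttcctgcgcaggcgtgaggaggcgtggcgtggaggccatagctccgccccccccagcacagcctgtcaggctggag
Abca1, minus strand, chr4:53159896-53160145: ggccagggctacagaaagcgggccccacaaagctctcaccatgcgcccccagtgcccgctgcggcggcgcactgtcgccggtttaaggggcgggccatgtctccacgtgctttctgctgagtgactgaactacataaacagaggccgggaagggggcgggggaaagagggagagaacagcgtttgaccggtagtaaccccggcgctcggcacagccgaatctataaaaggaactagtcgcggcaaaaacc
In Hmgcs1 the capitals TCACCCCAC lay from 137 to 129 bases before the start, between CCAAT matches that began 176 and 45 bases before it. A match is a description of the letters and not a measured binding site.

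The libraries held between 18748885 and 23571878 counts. Levels are given as CPM, a count's share of the TMM-scaled library total in the usual unit, as mean ± SD over 3 controls and 4 knockouts. All 34 genes passed the filter on low counts. For Brd9 itself the fitted log2 difference was -1.53 (edgeR quasi-likelihood, adjusted p = 0.0037), with all 4 knockouts below all 3 controls; the labels do not name the exons between the loxP sites, and the count covers the whole gene. The stem and progenitor markers were present in the fraction, with all 12 tested and a summed level of 751 to 1328 CPM over the 7 libraries. It also held hepatocyte RNA, with 18 of 18 markers tested and a summed level of 11860 to 20700 CPM in controls and 14890 to 26640 CPM in knockouts. All 14 tested macrophage markers were lower in knockouts, 10 of them at an unadjusted p under 0.05 in edgeR, against 6.90% of tested genes. At an adjusted p under 0.05, edgeR called 1, DESeq2 7 and limma-voom 1. The shares of tested genes called in either direction were 0.559%, 2.30% and 0.504%. The edgeR call was Siglec1, chosen after its values were seen. It was lost without control replicate 3 and with knockout replicates 2 and 3 alone. The summed level of the macrophage markers was 237 to 326 CPM in controls and 85.9 to 171 CPM in knockouts. All 15 neutrophil markers were lower in knockouts. Of these edgeR called 8, DESeq2 9 and limma-voom 8, against the same 0.559%, 2.30% and 0.504% of tested genes. Their summed level was 5070 to 9018 CPM in controls and 1710 to 3872 CPM in knockouts. Of 14 erythroid markers 12 lay above 0 and 0 passed in edgeR. At an unadjusted p under 0.05 in edgeR 6 were higher, against 3.95% of tested genes. DESeq2 called 3 and limma-voom 0, against 2.30% and 0.504% of tested genes in either direction. The summed level of the erythroid markers was 2863 to 5006 CPM in controls and 4971 to 6766 CPM in knockouts. Apart from a fit with the hepatocyte level as a term, given below, the part of these cell types in the sterol gene values was not tested. No marker of these lists was at 0 in all libraries. In bulk RNA, fewer cells of a type and less RNA per cell cannot be told apart.

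Fitted differences of the synthesis genes lay above 0, and those of most efflux genes at or below it. All 19 synthesis enzymes had a fitted difference above 0, with a median log2 fold change of 0.27 and a range of 0.036 to 0.48. Of the 6 LXR and efflux genes 5 lay below 0, Apoe among them at -0.0013, with a median of -0.063 for the 6. Without knockout replicate 1 only 2 of the 6 lay below 0, and without knockout replicate 4 all 6 did. Over all 14679 tested genes the median was 0.011, and 52.4% lay above 0. None of the 34 genes passed the adjusted threshold of 0.05 in edgeR, in DESeq2 or in limma-voom, where the shares of tested genes that passed in either direction were 0.559%, 2.30% and 0.504%. At an unadjusted p under 0.05, edgeR had 10 of the 34 higher and 0 lower, against 3.95% of tested genes higher and 6.90% lower. The count of 10 varied with the fit and with the libraries used, as given below. The knockouts lay wholly above the controls in 7 of the 34 genes and wholly below in 0, against 4.38% and 6.81% of tested genes. The authors' deposited table likewise holds 0 of the 34 genes at an adjusted p under 0.05, with 0.0799 as the smallest. At an unadjusted p under 0.05 the authors' deposited table has 10 of them higher and 2 lower, and the 2 are Soat1 and Abcg1.

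**Figure D1:**
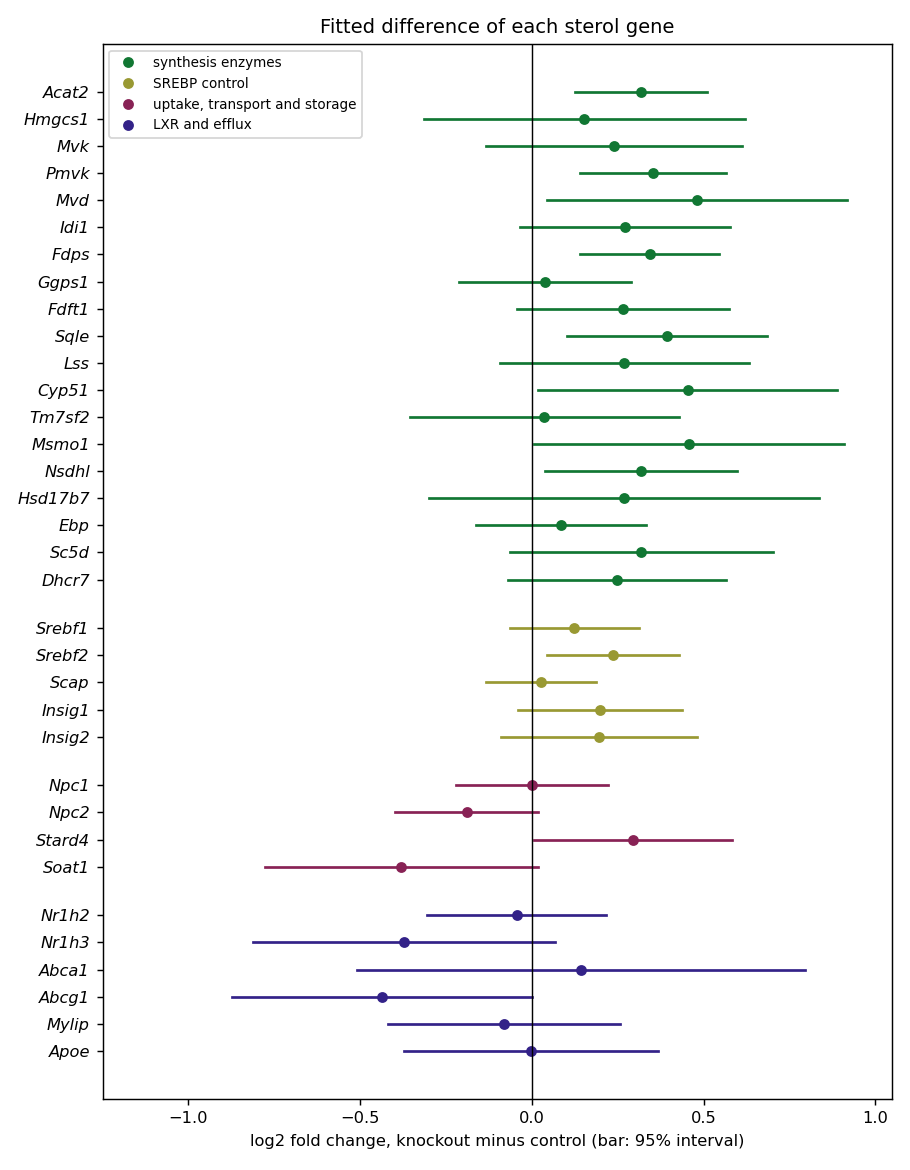
Fitted log2 fold change (x axis, knockout minus control; points) with its 95% interval (bars) for the 34 sterol genes, ordered by role. All 19 synthesis enzymes lie to the right of 0, while 5 of 6 LXR and efflux genes lie to its left, Apoe at -0.0013. In all, 24 of the 34 intervals cover 0.

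The first enzymes of the pathway turn acetyl-CoA into mevalonate and then into isoprene units. Acat2, the cytosolic thiolase that joins acetyl-CoA units (chromosome 17, 12942890 to 12960747, minus strand, GRCm38), had 81.2, 75.1 and 80.7 CPM in controls and 109, 88.0, 97.3 and 99.6 CPM in knockouts. Every knockout lay above every control, and the log2 fold change was 0.32 (SE 0.085, 95% interval 0.13 to 0.51, adjusted p = 0.176). Acat3, a neighbouring gene of similar sequence chosen after its values were seen, had 10.5 ± 2.5 and 12.5 ± 1.6 CPM, and reads from stretches that the pair share could be counted to either. Hmgcs1, the cytosolic HMG-CoA synthase (chromosome 13, 119690379 to 119708260, plus strand), had 173, 158 and 212 CPM in controls and 238, 175, 135 and 258 CPM in knockouts. The knockouts lay on both sides of the controls, with replicates 1 and 4 above all of them and replicate 3 below, so the interval of the log2 fold change ran from -0.31 to 0.62. Mvk, the mevalonate kinase, likewise had replicates 1 and 4 above all controls and replicate 3 below, with 28.2, 20.9, 18.6 and 27.7 CPM in knockouts against 18.9 to 22.5 CPM in controls.

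Pmvk, the phosphomevalonate kinase (chromosome 3, 89454541 to 89469013, plus strand), was the most even of the synthesis genes over the knockouts. It had 39.4, 32.5 and 33.8 CPM in controls and 47.0, 42.5, 46.4 and 44.2 CPM in knockouts, for which the fit gave a log2 fold change of 0.35 (with SE 0.095, 95% interval 0.14 to 0.57, adjusted p = 0.177). The highest knockout was 1.11 times the lowest, against 1.91 times in Hmgcs1 and 2.32 times in Hsd17b7. Mvd, the decarboxylase that makes isopentenyl pyrophosphate, had the largest fitted difference of the 19, at 0.48 on the log2 scale (SE 0.19, 95% interval 0.044 to 0.92, adjusted p = 0.414). Its controls held 20.1, 25.1 and 25.1 CPM and its knockouts 41.3, 25.0, 26.1 and 38.5 CPM, so replicates 1 and 4 carried most of that difference. Idi1, the isomerase of isopentenyl pyrophosphate, had 102 to 109 CPM in controls and 101 to 162 CPM in knockouts, 3 of which lay above all controls.

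The branch point and the squalene steps held further genes without overlap between the groups. Fdps, which makes farnesyl pyrophosphate (chromosome 3, 89093588 to 89101959, minus strand), had 117, 117 and 131 CPM in controls and 176, 145, 145 and 152 CPM in knockouts. Its log2 fold change was 0.34 (SE 0.090, 95% interval 0.14 to 0.55, adjusted p = 0.166), the smallest adjusted p of the 34. Fdps shares 1124 exon bases with Gm43738 on the same strand, so its count could have lost or gained reads. Sqle, the squalene epoxidase and a slow step of the pathway (chromosome 15, 59315077 to 59331192, plus strand), had 73.6, 73.6 and 85.2 CPM in controls and 126, 89.5, 87.8 and 104 CPM in knockouts, and a fitted difference of 0.39 on the log2 scale (SE 0.13, adjusted p = 0.297). Both genes were higher in every knockout than in every control, and in both replicate 1 was the highest. Ggps1, which leads farnesyl pyrophosphate away from sterol toward prenyl groups on proteins, had 23.7 ± 2.3 CPM in controls and 24.3 ± 1.8 CPM in knockouts, and its interval of -0.21 to 0.29 leaves room for a change of either sign. Fdft1, the squalene synthase, had 63.5 ± 8.9 and 76.3 ± 11.8 CPM with overlapping groups; 774 of its exon bases overlap exons of Ctsb on the other strand, and the strand setting of the counting is not given in the sources used here.

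Lss closes the ring to form lanosterol, and the later enzymes trim lanosterol to cholesterol. Cyp51, the lanosterol demethylase (chromosome 5, 4081145 to 4104746, minus strand), had 60.7, 60.4 and 67.9 CPM in controls and 114, 70.8, 61.4 and 99.6 CPM in knockouts. Msmo1, the sterol methyl oxidase (chromosome 8, 64718139 to 64733792, minus strand), had 44.9, 43.5 and 46.1 CPM in controls and 83.9, 46.8, 46.1 and 69.7 CPM in knockouts. Both genes stood far above the controls in replicates 1 and 4 and within the control range or just above it in replicates 2 and 3. Their log2 fold changes were 0.45 (SE 0.19, adjusted p = 0.440) and 0.46 (SE 0.20, adjusted p = 0.454). Nsdhl, a dehydrogenase of the same demethylation steps encoded on the X chromosome, had 33.96, 30.9 and 34.7 CPM in controls and 48.9, 36.8, 35.8 and 44.1 CPM in knockouts (log2 fold change 0.32, SE 0.12, adjusted p = 0.397). The groups did not overlap in Nsdhl, although replicate 3 lay only just above the highest control, nor in Msmo1, while Cyp51 overlapped through replicate 3.

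Lss and the remaining late enzymes overlapped between the groups, as Cyp51 did. Lss, Sc5d and Dhcr7, the cyclase, the desaturase and the last reductase of the route, had log2 fold changes of 0.27, 0.32 and 0.25, with intervals that each began below 0 (-0.093, -0.063 and -0.069). Hsd17b7, the keto reductase of the route, varied most among the synthesis genes, with 27.0, 19.4, 11.7 and 25.7 CPM in knockouts around 15.7 to 18.5 CPM in controls. Replicate 3 lay below every control there and the other 3 knockouts above. Tm7sf2, a sterol reductase, and Ebp, the X-linked sterol isomerase, had the smallest differences of the late enzymes, 0.036 (95% interval -0.36 to 0.43) and 0.085 (-0.16 to 0.33). Tm7sf2 shares 532 exon bases with Vps51 on the same strand, so its count could have lost or gained reads. Xist, which is transcribed from the inactive X, stood at 740 to 802 CPM in control replicates 1 and 3 and knockout replicate 2 and at 0.373 CPM or less in the other 4 libraries, and its part in the X-linked values was not tested beyond a fit with its level as a term, where Nsdhl had 0.29.

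**Figure D2:**
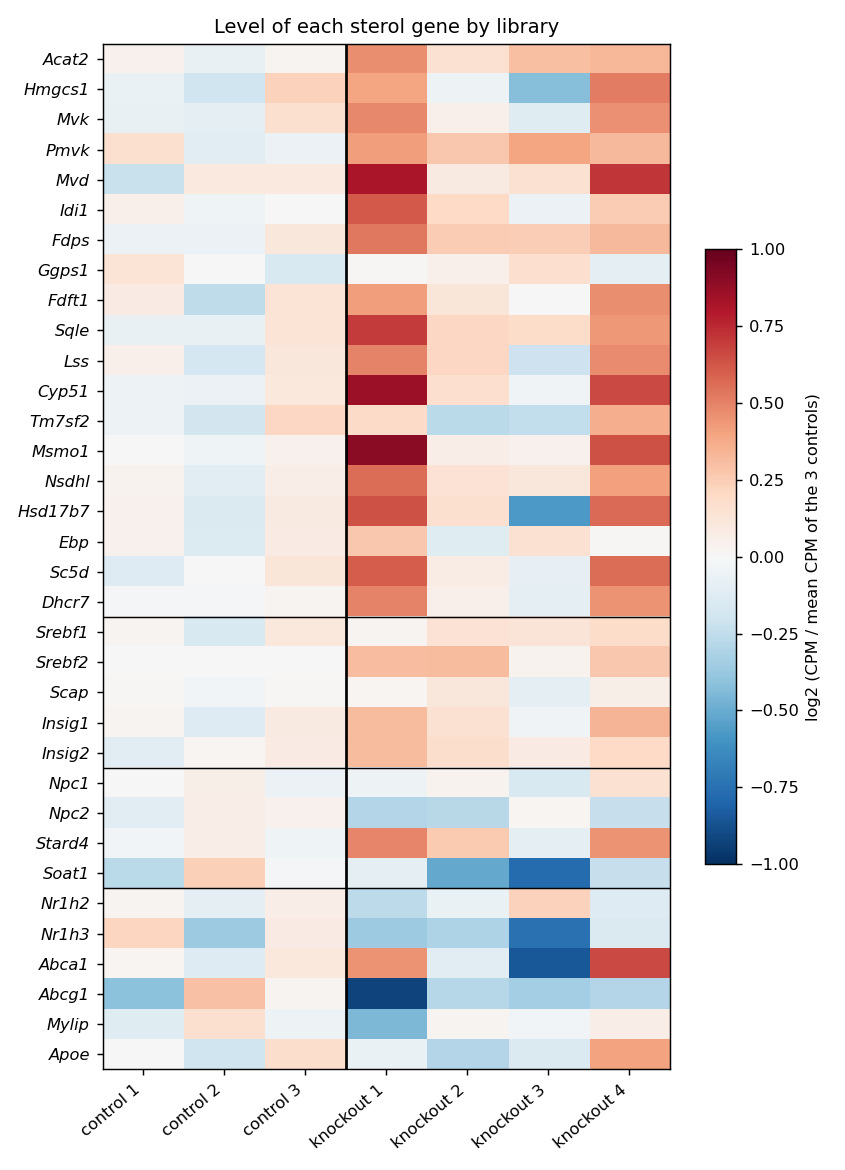
Colour gives log2 of the CPM over the mean of the 3 controls for each of the 34 sterol genes (rows, ordered by role, with lines between roles) in each library (columns). The columns of knockout replicates 1 and 4 are the warmest among the synthesis enzymes, and Abcg1 in replicate 1 and Abca1, Nr1h3 and Soat1 in replicate 3 are the coldest cells.

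The 4 knockouts were not alike in these genes. Replicate 1 lay above every control in 17 of the 19 synthesis enzymes and replicate 4 in 17, replicate 2 in 11 and replicate 3 in 9. Replicate 3 also lay below every control in 7. These counts have no share over all tested genes beside them and are a description only. The mean log2 CPM of the 19 enzymes was 5.64, 5.55 and 5.72 in controls and 6.16, 5.74, 5.64 and 6.06 in knockouts, so replicate 3 stood within the control range. The hepatocyte markers had the same order over the knockouts except at its top, with a mean log2 CPM of 8.29, 7.85 and 8.57 in controls and 8.71, 8.23, 8.04 and 8.99 in knockouts. Their highest genes were Alb (5694 ± 1711 and 6576 ± 1633 CPM), Afp (4055 ± 925 and 5939 ± 2194 CPM) and Trf (1891 ± 544 and 2722 ± 941 CPM), and 0 of 18 had an unadjusted p under 0.05. With the mean hepatocyte level as a term in the fit, 17 of the 19 synthesis enzymes stayed above 0 and their median was 0.15, while all 6 LXR and efflux genes lay below 0 with a median of -0.19. Pmvk, Fdps and Acat2 then had log2 fold changes of 0.34, 0.30 and 0.28, against 0.35, 0.34 and 0.32 without the term, while Cyp51 and Msmo1 had 0.25 and 0.26 against 0.45 and 0.46. With the term 4 of the 19 enzymes were higher at an unadjusted p under 0.05 in edgeR, against 8 without it. The shares of all tested genes higher at that level were 3.83% and 3.95%.

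The size of the synthesis difference and the number of genes at an unadjusted p under 0.05 both varied with the libraries used. The median of the 19 enzymes was 0.20 without knockout replicate 1 and 0.37 without knockout replicate 3. With a control left out it was 0.25 to 0.33. Without knockout replicate 3, 15 of 19 enzymes had an unadjusted p under 0.05, and 18 of the 34 genes were higher at that level, against 10 with all libraries; of all genes tested in that fit, 4.92% were higher at that level. With control replicate 1, 2 or 3 left out, the 10 became 4, 6 and 5, where 2.99%, 3.35% and 2.36% of all genes tested were higher. With knockout replicate 1, 2 or 4 left out, the 10 became 5, 8 and 5, where 2.69%, 3.55% and 4.91% were higher. With knockout replicates 2 and 3 alone, a choice made after their levels were seen, 14 of 19 enzymes lay above 0, the median was 0.067 and 3 were higher at an unadjusted p under 0.05, against 3.26% of all genes tested there. Pmvk, Fdps and Acat2 had log2 fold changes of 0.34, 0.25 and 0.23 there. Cyp51 and Msmo1 had 0.072 and 0.055, and Hmgcs1 was at -0.22.

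Among the genes that control SREBP, Srebf2 was the 1 gene whose groups did not overlap. Srebf2, which encodes the SREBP form that mainly drives sterol synthesis (chromosome 15, 82147181 to 82205379, plus strand), had 176, 177 and 175 CPM in controls and 218, 220, 180 and 212 CPM in knockouts. All 4 knockouts lay above the narrow control range, replicate 3 only just, and the log2 fold change was 0.24 (SE 0.086, 95% interval 0.045 to 0.43, adjusted p = 0.347). Srebf1, whose product mainly drives fatty acid genes, had 201 ± 18 and 218 ± 10 CPM (log2 fold change 0.12, 95% interval -0.065 to 0.31). Scap, the escort that senses sterol, had 114 ± 2 CPM in controls and 116 ± 7 CPM in knockouts, with an interval of -0.13 to 0.19. Insig1, itself switched on by SREBP, had 57.9, 52.0 and 60.4 CPM in controls and 70.5, 62.9, 55.4 and 71.7 CPM in knockouts. Insig2, its relative, had 10.3 ± 0.7 and 11.8 ± 0.8 CPM. Both Insig genes lay above all controls in 3 of 4 knockouts, with log2 fold changes of 0.20 and 0.20, and in both replicate 3 was the exception. Per kilobase of exon, the control level was 35.6 CPM for Srebf1, 24.5 for Srebf2, 18.3 for Insig1, 15.3 for Scap and 2.96 for Insig2.

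Genes of transport and storage did not share a direction. Stard4, a carrier of sterol between membranes that SREBP induces, had 91.9, 98.3 and 91.2 CPM in controls and 132, 113, 88.3 and 128 CPM in knockouts (log2 fold change 0.29, SE 0.13, adjusted p = 0.451). It followed the synthesis enzymes in its order over the knockouts. Npc1 and Npc2, which hand sterol out of the lysosome after lipoprotein uptake, had 32.9 ± 1.3 and 33.0 ± 2.9 CPM and 120 ± 8 and 105 ± 11 CPM. The interval of Npc1 ran from -0.22 to 0.22 and that of Npc2 from -0.40 to 0.018. Soat1, the enzyme that esterifies sterol for storage (chromosome 1, 156424525 to 156474331, minus strand), had 26.5, 37.9 and 31.7 CPM in controls and 30.0, 22.5, 18.8 and 27.3 CPM in knockouts. No knockout lay above the controls and 2 lay below them, and the fitted log2 difference was -0.38 (SE 0.18, 95% interval -0.78 to 0.018, adjusted p = 0.489).

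**Figure D3:**
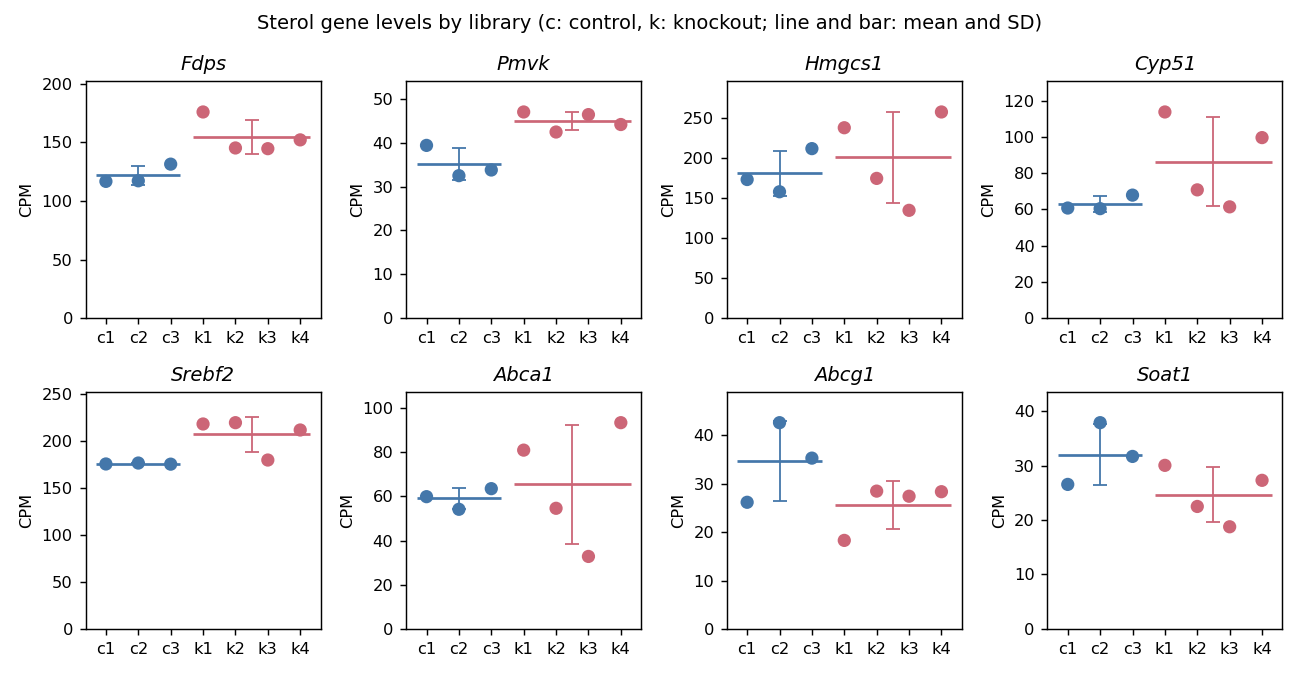
CPM (y axis, from 0) of 8 sterol genes in each library, with the group mean as a line and the SD as a bar. Fdps, Pmvk and Srebf2 are higher in all 4 knockouts than in all 3 controls, Hmgcs1 and Abca1 spread to both sides of the controls, and Abcg1 and Soat1 have their lowest values among the knockouts.

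Most LXR and efflux genes lay below 0, but several only just. Apoe, Nr1h2 and Mylip had log2 fold changes of -0.0013, -0.045 and -0.081, and Abca1 lay above 0. Abcg1, a pump that passes sterol to HDL (chromosome 17, 31057675 to 31117988, plus strand), had 26.2, 42.6 and 35.3 CPM in controls and 18.3, 28.5, 27.4 and 28.4 CPM in knockouts. Replicate 1 lay below every control and the other 3 knockouts within the control range (log2 fold change -0.44, SE 0.19, 95% interval -0.87 to 0.0013, adjusted p = 0.463). Abca1, the pump that loads apolipoprotein A-I (chromosome 4, 53030787 to 53159895, minus strand), had 59.9, 54.2 and 63.5 CPM in controls and 81.0, 54.6, 32.8 and 93.4 CPM in knockouts. Its knockouts spanned 2.85-fold, the widest span of the 34 genes, with replicates 1 and 4 above the controls and replicate 3 below, so the order was that of Hmgcs1 and not that of Abcg1. The interval of its log2 fold change ran from -0.51 to 0.80.

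The 2 LXR receptors differed in level. Nr1h2, the widely expressed form, had 65.9 ± 3.9 and 63.9 ± 9.6 CPM with an interval of -0.30 to 0.21. Nr1h3, the form of macrophages and liver, had 10.9, 7.29 and 9.89 CPM in controls and 7.26, 7.54, 5.59 and 8.48 CPM in knockouts (log2 fold change -0.37, SE 0.20, adjusted p = 0.557). Of its knockouts 2 lay below all controls and 0 above. Mylip, the LXR-induced ligase that marks lipoprotein receptors for degradation, had 17.0 ± 1.8 and 16.1 ± 2.5 CPM. Apoe, the lipoprotein component made by hepatocytes and macrophages, had 723, 633 and 819 CPM in controls and 693, 591, 655 and 958 CPM in knockouts, with means of 725 ± 93 and 724 ± 161 CPM, and per kilobase of exon its control level of 339 CPM was the highest of the 34 genes, ahead of Hmgcs1 at 39.4. Replicate 4, which had the most hepatocyte RNA, lay above all controls in Apoe, replicate 2 lay below them, and replicate 1, second in hepatocyte RNA among the knockouts, lay within their range.

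Set against each other within a library, synthesis and efflux separated the groups. The mean log2 CPM of the 19 synthesis enzymes minus that of the 6 LXR and efflux genes was 0.033, -0.040 and 0.0097 in controls and 0.78, 0.26, 0.30 and 0.31 in knockouts. All 4 knockouts lay above all 3 controls, including replicate 3, whose synthesis level alone was within the control range and whose efflux level of 5.34 was the lowest of the 7. The efflux level alone overlapped between the groups, at 5.604, 5.595 and 5.714 in controls and 5.382, 5.475, 5.338 and 5.744 in knockouts. Knockout replicate 4 had the highest efflux level of the 7, so its difference came from synthesis. Replicate 1 had the largest difference, from both the highest synthesis level and an efflux level of 5.38. The difference of the medians of the fitted values was 0.33 on the log2 scale, and it was 0.19 without knockout replicate 1, where the efflux median was 0.015. No test was made of this difference, because both gene groups were listed with earlier results of these libraries known. The macrophage markers, which were lower in all 4 knockouts than in all 3 controls, were lowest in replicate 1 (mean log2 CPM 0.98, against 1.99 to 2.66 in the other knockouts and 3.23 to 3.98 in controls), and their part in the efflux values was not tested. The neutrophil markers were likewise lower in every knockout than in every control (mean log2 CPM 5.51 to 6.70 against 7.17 to 8.08), and the erythroid markers lay at 7.85 to 8.22 in knockouts and 7.05 to 7.90 in controls.

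**Figure D4:**
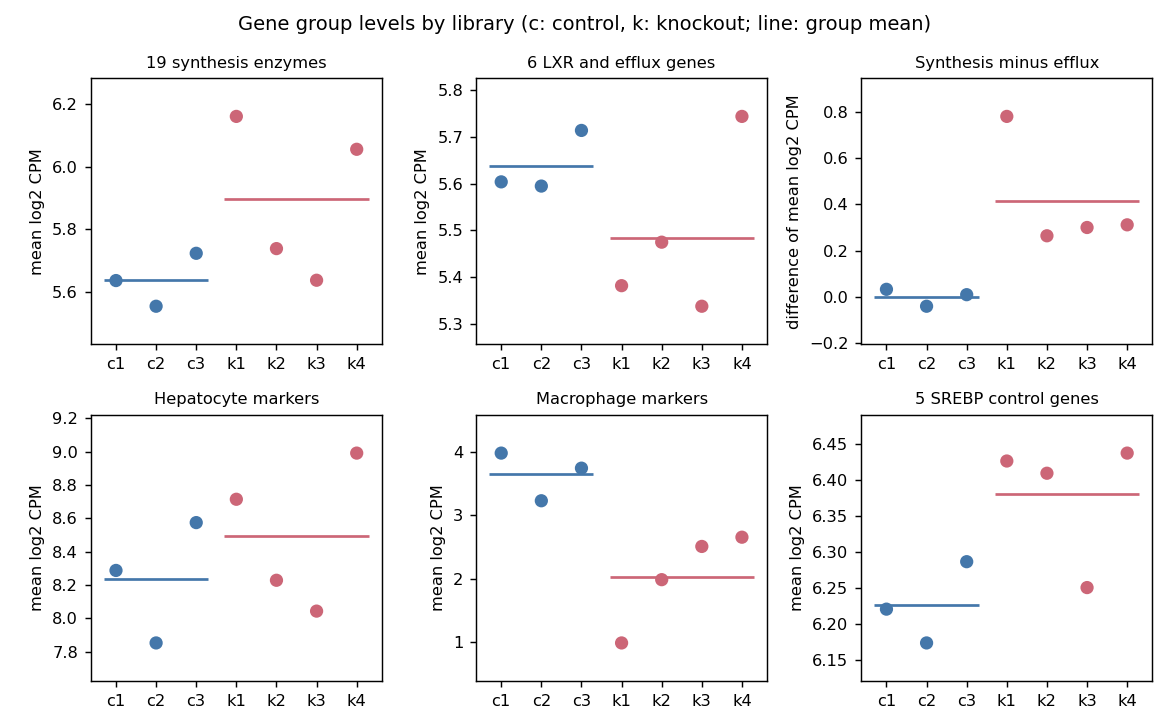
Mean log2 CPM (y axis) of gene groups in each library, and the difference between synthesis and efflux, with the group mean as a line. The difference lies between -0.040 and 0.033 in controls and between 0.26 and 0.78 in knockouts, while the synthesis and hepatocyte panels share knockout replicates 1 and 4 as their highest points.

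Genes around the pathway were read from lists of related function. Of 14 lipogenic SREBP targets 13 lay above 0, with a median log2 fold change of 0.23, 0 passed the adjusted threshold, and 4 were higher and 0 lower at an unadjusted p under 0.05, against 3.95% and 6.90% of tested genes. Fads1 and Fads2, desaturases of polyunsaturated fatty acids, had 94.5 ± 5.9 and 120 ± 9 CPM and 104 ± 7 and 132 ± 15 CPM, both without overlap, and Elovl6, an elongase, had 51.7 ± 3.8 and 70.0 ± 13.0 CPM. DESeq2 called Fads1 higher. Of 14 genes of SREBP processing and sterol-regulated degradation, 5 of them members described above, 0 passed and the median was 0.059. Erlin1, an endoplasmic reticulum protein that limits SREBP activation, had 58.3 ± 2.3 CPM in controls and 47.8 ± 2.4 CPM in knockouts, all 4 below all 3 controls (adjusted p = 0.173).

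Lipoprotein receptors and other sterol transport genes lay mostly below 0. Of 15 tested, 11 did so, with a median of -0.18; 0 passed, and 1 was higher and 4 lower at an unadjusted p under 0.05 (3.95% and 6.90% of tested genes). Scarb2, a lysosomal membrane protein, had 51.7 ± 0.4 and 38.9 ± 2.3 CPM (log2 fold change -0.41, adjusted p = 0.066), and Nceh1, a hydrolase of cholesterol esters in macrophages, had 14.3 ± 1.1 and 10.3 ± 0.6 CPM (adjusted p = 0.158). Vldlr, a lipoprotein receptor, was the gene higher, with 2.98 ± 0.47 and 6.89 ± 3.25 CPM (adjusted p = 0.223). DESeq2 called Scarb2 and Nceh1 lower and Vldlr higher. Of 16 listed LXR targets and oxysterol enzymes 12 passed the filter on low counts, of which 7 lay below 0 and 0 passed in edgeR, where 0 were higher and 3 lower at an unadjusted p under 0.05, beside the same 3.95% and 6.90%. These 3 were Pltp, a phospholipid transfer protein (2.90 ± 1.08 and 0.986 ± 0.364 CPM), Smpdl3a, a phosphodiesterase (22.4 ± 2.1 and 15.8 ± 3.4 CPM), and Cyp27a1, the sterol hydroxylase of mitochondria (4.84 ± 0.74 and 3.35 ± 0.78 CPM). All 3 lay below the controls in every knockout, and DESeq2 called Pltp.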

How the data were processed

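RNA was measured in 3 control and 4 knockout libraries. The deposited counts are unnormalized reads for each gene symbol, made per the submitters' processing notes with HISAT2, featureCounts and mm10; versions, annotation, strand setting and the handling of multi-mapped reads were not given in the sources used here. The authors' deposited table of their DESeq2 comparison holds log2 fold changes, a test score, p-values and adjusted p-values, and a signal, which is the count divided by 1 size factor per library; it was used for the values credited to it.

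Counts were filtered with filterByExpr, given TMM scaling factors and put through edgeR's quasi-likelihood test (edgeR 4.0.16, R 4.3.3) over 14679 genes, with group as the only term and Benjamini-Hochberg adjustment over all of them. The 95% intervals use the standard errors of that fit, and log2 CPM a prior count of 2. The method was run on simulated counts with planted differences, as a check on the size of the fitted fold changes. How often differences as small as those of the sterol genes would be called is not given here. The lack of adjusted calls therefore does not show that differences are absent. Alternatives were DESeq2 1.42.0, limma-voom (limma 3.58.1), other scalings and filters, robust dispersion, a replicate block, 1 surrogate variable from sva 3.50.0, the levels of Xist or of the hepatocyte markers as a covariate, leaving out each library, and, chosen after seeing the data, leaving out knockout replicates 1 and 4. The members and lists were chosen with earlier results of these data known, and no score over them was tested. Named genes are all members, up to 3 of each related list with the smallest p, and up to 3 of a marker list with the highest level. Coordinates and exon lengths are from GENCODE M21 (GRCm38), promoter sequences from RefSeq (GRCm38.p6). No 2 libraries of a group agreed within sampling noise (chi-square per degree of freedom 9.0 to 45.6).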

Additional observations from a re-analysis of the deposited data

Results flagged for a closer look

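Among the 4 knockouts, 38 sets of values (34 genes and 4 gene groups) were checked for a library far from the rest, and 2 were found; chance alone marks about 1 in 20. Abcg1 was 18.3 CPM in knockout replicate 1, against 27.4 to 28.5 CPM in the other 3 knockouts. The 5 SREBP control genes had a mean log2 CPM of 6.25 in knockout replicate 3, against 6.41 to 6.44 in the other 3, and replicate 3 was the lowest knockout for 4 of the 5 genes.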

How the results depend on the processing

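No sterol gene passed the adjusted threshold under any alternative run (0 called in each). At an unadjusted p under 0.05, 6 of the 34 genes were higher in limma-voom, against 10 in the main edgeR fit. In edgeR with the replicate block, 1 surrogate variable or the Xist covariate, 5, 8 and 4 were higher. The shares of tested genes higher in these alternatives, in that order, were 3.70%, 6.57%, 4.36% and 2.17%. The number of changed genes over the whole table, 82, was 228 with no filter, 386 with DESeq2, 136 with 1 surrogate variable, 52 with the Xist level as a covariate, 7 with knockout replicates 2 and 3 alone, and 20 to 120 with single libraries left out. The median of the synthesis enzymes stayed above 0 in every fit. With single libraries left out it ran from 0.20 without knockout replicate 1 to 0.37 without knockout replicate 3. It was lower in other fits, at 0.17 under 1 surrogate variable, 0.15 under the hepatocyte covariate and 0.067 with knockout replicates 2 and 3 alone. The efflux median ran from -0.15 to 0.015 over the fits that left out a library and was -0.19 under the hepatocyte covariate, -0.12 under 1 surrogate variable and -0.26 with knockout replicates 2 and 3 alone; the difference between them ran from 0.19 to 0.49. The labels do not say whether the replicate numbers pair the libraries. Correlations of same-numbered deviations from the group mean were 0.17, -0.022 and -0.0052, and of the controls only replicate 1 correlated best with its own number. These correlations cannot decide whether the numbers pair the libraries, because deviations within so small a group depend on each other. The replicate block gave 121 changed genes, a synthesis median of 0.20 and an efflux median of -0.16.

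Signs turned in these cases. Npc1 was -0.012 with total counts, -0.0048 with no filter, -8.0e-04 with a minimum mean of 1 CPM, -0.0032 with limma-voom, -0.054 with the replicate block, -0.018 with 1 surrogate variable, -0.0023 with the Xist covariate, -0.026 with the hepatocyte covariate and -0.051 with knockout replicates 2 and 3 alone. In the last 5 of these settings, in that order, Tm7sf2 was -0.097, -0.078, -0.0062, -0.15 and -0.25. With the replicate block, 1 surrogate variable, the hepatocyte covariate and knockout replicates 2 and 3 alone, Hmgcs1 was -0.014, -0.037, -0.094 and -0.22, and Abca1 -0.16, -0.18, -0.23 and -0.44. Nr1h2 was 0.0018 with 1 surrogate variable and 0.093 with knockout replicates 2 and 3 alone, where Mvk was -0.031, Hsd17b7 -0.16, Dhcr7 -0.015 and Mylip 0.0021. Alb was -0.017 with the hepatocyte covariate and -0.090 with those 2 knockouts alone. With single libraries left out, Ggps1 ran from -0.030 to 0.11, Tm7sf2 from -0.092 to 0.15, Scap from -0.0041 to 0.066, Npc1 from -0.053 to 0.048, Nr1h2 from -0.15 to 0.016, Abca1 from -0.078 to 0.37, Mylip from -0.14 to 0.017 and Apoe from -0.17 to 0.095. The cause was not tested. Depth limits the least expressed sterol gene most, Nr1h3, whose lowest count in a library was 118.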
